A study of Mus musculus with 6 samples.

Results

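The endoplasmic reticulum (ER) chaperones and the factors of the unfolded protein response were followed through 10 genes, namely Mzb1, Hspa5, Hsp90b1, Pdia4, Pdia6, Herpud1, Edem1, Xbp1, Atf4 and Ddit3. They were chosen by name, as genes that secretory cells such as plasmacytoid dendritic cells (pDCs) use, and are 10 of the 23420 gene symbols in the count tables. Reads were counted in 6 libraries from dendritic cells (DCs) sorted from the thymus of wild type mice, with 2 libraries in each of 3 groups and 1 batch. The YG+ pDCs were CD11c low B220+ cells that carried yellow-green microspheres. They came from mice with MC38 tumours, a mouse colon carcinoma line, whose tumours had grown for 12 days when the microspheres were injected, and the cells were taken 2 days later. The PBS pDCs had the same CD11c low B220+ gate and the PBS Sirpa+ DCs, a conventional DC subset, were CD11c high Sirpa+, both from mice given PBS with a time label of 2 weeks. The tumour (which the labels do not give for the PBS mice), the microspheres and the gate on them cannot be told apart between YG+ pDCs and PBS pDCs. The sources used here give neither strain nor age. Whether libraries of a group are from different animals is not in the labels, so the spread behind each p-value may be technical.

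Proteins that are secreted or sit in membranes fold in the ER, where Hspa5 (BiP) and Hsp90b1 (GRP94) hold unfolded chains, protein disulfide isomerases such as Pdia4 and Pdia6 make their disulfide bonds, and Herpud1 and Edem1 serve the removal of chains that fail to fold. When unfolded chains build up, the sensor IRE1 splices Xbp1 mRNA, ATF6 is cut to release a transcription factor, and PERK slows translation while favouring that of ATF4, which induces Ddit3 (CHOP). XBP1 is needed for plasma cells and for normal pDC development in mice, and Mzb1 is a partner of GRP94 in B lineage cells and pDCs. The gene counts used here do not separate the spliced from the unspliced Xbp1 transcript.

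ATF6 and XBP1 are known to act through the ER stress response element (ERSE), and 3 of the 9 members with an entry in the RefSeq promoter table (GRCm38.p6) held it. Both strands were searched from 250 bases before to 50 bases after the RefSeq start. ERSE (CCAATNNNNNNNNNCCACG) was in the windows of Hspa5, Hsp90b1 and Pdia6, against 0.137% of the 27025 genes in the table. ERSE-II (ATTGGNCCACG) was in the Herpud1 window, against 0.0444% of genes, and so was the element TTGCATCA, bound by dimers of C/EBP and ATF4, against 1.03% of genes. The UPRE core TGACGTGG was in none of the 9 windows and in 0.714% of genes. No match overlapped another, and a match is a description of these letters only. The 250 bases before the start are shown for the 4 members with a match, 5′ to 3′ on the gene's strand, with the fixed letters of the matches in capitals; they lie at chr2:34771840-34772089 (plus strand) for Hspa5, chr10:86705445-86705694 (minus) for Hsp90b1, chr12:17266339-17266588 (plus) for Pdia6 and chr8:94386179-94386428 (plus) for Herpud1.
Hspa5: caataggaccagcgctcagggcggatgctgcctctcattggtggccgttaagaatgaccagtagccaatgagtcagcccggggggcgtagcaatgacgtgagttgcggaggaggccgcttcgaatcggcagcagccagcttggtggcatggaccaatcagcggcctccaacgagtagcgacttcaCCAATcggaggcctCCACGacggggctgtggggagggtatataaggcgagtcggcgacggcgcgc
Hsp90b1: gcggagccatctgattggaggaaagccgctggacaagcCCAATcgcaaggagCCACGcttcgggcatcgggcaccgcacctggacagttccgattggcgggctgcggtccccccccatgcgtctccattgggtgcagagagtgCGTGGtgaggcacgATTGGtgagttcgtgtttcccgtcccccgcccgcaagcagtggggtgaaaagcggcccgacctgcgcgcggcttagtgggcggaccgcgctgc
Pdia6: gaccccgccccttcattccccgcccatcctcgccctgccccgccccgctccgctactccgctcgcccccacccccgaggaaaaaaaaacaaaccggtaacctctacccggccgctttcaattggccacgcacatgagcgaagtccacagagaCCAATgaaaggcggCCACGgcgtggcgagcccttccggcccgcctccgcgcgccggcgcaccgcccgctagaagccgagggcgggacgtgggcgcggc
Herpud1: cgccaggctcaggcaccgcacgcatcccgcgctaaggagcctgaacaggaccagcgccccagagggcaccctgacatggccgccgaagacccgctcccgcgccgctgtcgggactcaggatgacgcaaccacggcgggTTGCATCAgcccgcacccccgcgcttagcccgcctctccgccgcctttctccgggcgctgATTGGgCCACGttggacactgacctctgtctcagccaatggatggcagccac

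Hspa5 held its ERSE with the first base at position -65 from the start and Pdia6 at -98. Hsp90b1 held 2, at -212 on its own strand and at -107 on the other strand. In Herpud1 the C/EBP-ATF element lay at -112 and ERSE-II at -52.

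**Figure D1:**
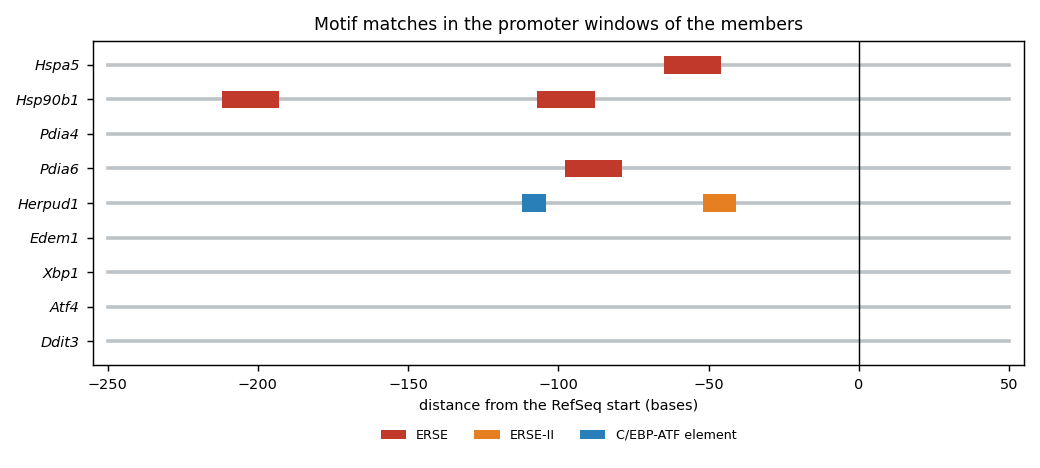
Positions of the motif matches in the promoter windows of the 9 members with an entry (horizontal axis: bases from the RefSeq start; 1 line per gene; coloured boxes: matched motif). Hspa5, Hsp90b1 and Pdia6 carry ERSE and Herpud1 carries ERSE-II and the C/EBP-ATF element, and the other 5 lines carry no box.

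Gene totals were 565406 to 713966 counts in the YG+ pDCs, 177844 and 413846 in the PBS pDCs, and 261136 and 525418 in the Sirpa+ DCs, or 0.842% to 3.36% of uniquely placed reads. PBS pDC replicate 1 was the shallowest library, and across genes the log2 levels of the PBS pDC libraries had a correlation of 0.726, against 0.934 for YG+ pDCs and 0.855 for Sirpa+ DCs. No source used here gives the strand setting of the counting. Tsix, which lies opposite to Xist, had 20.5 times the counts of Xist in PBS pDC replicate 1, 11.3 times in Sirpa+ DC replicate 1 and 2.70 to 4.81 times in the other 4 libraries. Reads from the strand opposite to a gene may thus be in its count, and whether the counting as a whole took the opposite strand was not tested, so a value here counts reads at a gene and not for certain its own transcript. Of the members' exon length, 10.3% in Hsp90b1, 4.73% in Ddit3 and 1.34% in Pdia6 lies under exons of the opposite strand, and none in the other 7. The list of 12 pDC markers summed to 5273 to 7661 CPM (counts scaled to library size with edgeR's TMM factors) in the pDC libraries and to 1083 and 1314 CPM in the Sirpa+ DCs. The 13 conventional DC markers summed to 1390 to 2354 CPM in the pDC libraries and to 5702 and 6186 CPM in the Sirpa+ DCs, so the sums followed the labels. Single markers did not all do so: Clec10a was higher in the pDC libraries (102 to 171 CPM against 31.9 and 42.3), Flt3, Itgam and Il3ra overlapped between pDCs and Sirpa+ DCs, and Fscn1 alone had 2827 and 2081 CPM in the Sirpa+ DCs. In such bulk samples, fewer cells of a type and less RNA per cell cannot be told apart.

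All 10 members passed the filter on low counts. In PBS pDCs against PBS Sirpa+ DCs, Mzb1 and Xbp1 were higher and the other 8 members did not pass edgeR's quasi-likelihood test at a Benjamini-Hochberg adjusted p of 0.05 over 8141 genes. Of all genes tested, 4.54% were called higher and 6.89% lower, beside 2 of 10 and 0 of 10 members. The median log2 difference of the members was 0.72, against 0.08 for all genes. In YG+ pDCs against PBS pDCs, 0 of 10 members were called, and the same test called 0% of all genes. At an unadjusted p under 0.05 it took 11.4% of all genes and 0 members. DESeq2 called 1.36% of the 8141 genes, where a gene without an adjusted p counted as not called. It called 0 of the 8 members to which it gave an adjusted p (Mzb1 and Ddit3 had none). The members' median was -0.04, against 0.08 for all genes. In YG+ pDCs against Sirpa+ DCs, Mzb1 was the 1 member called. Among all genes 3.07% were called higher and 4.09% lower, and the members' median was 0.45 against 0.04. With 2 libraries a group, groups that do not overlap were common. In PBS pDCs against Sirpa+ DCs, 22.9% of all genes lay wholly above and 24.2% wholly below, beside 4 and 1 of 10 members. The shares were 26.5% and 19.3% in YG+ against PBS pDCs (3 and 2 members). They were 32.8% and 29.1% in YG+ pDCs against Sirpa+ DCs (6 and 0 members).

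**Figure D2:**
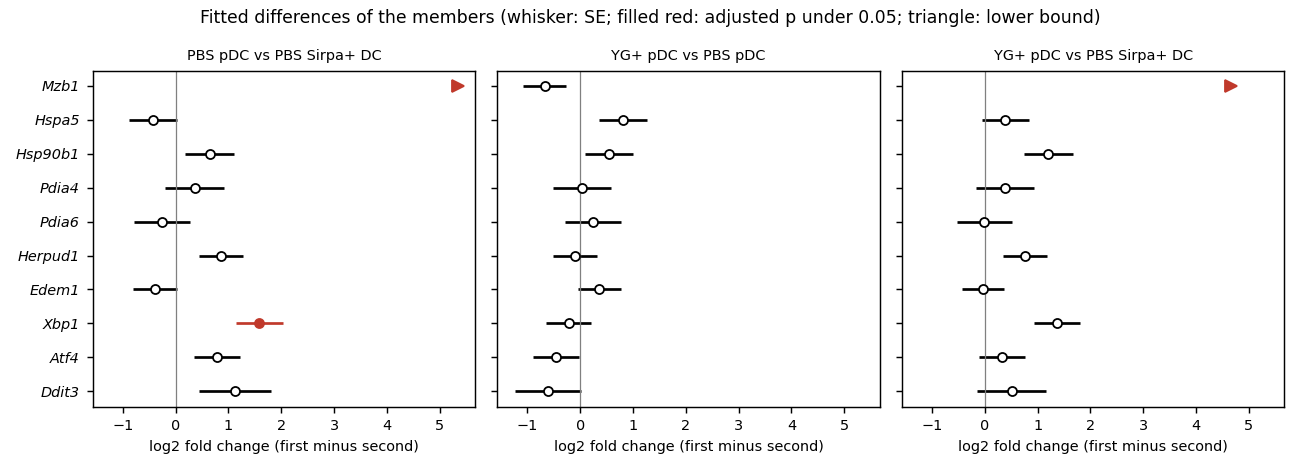
Log2 fold change of each member in the 3 comparisons (horizontal axis; first group minus second; whisker: SE of the edgeR fit; filled red: adjusted p under 0.05). Triangles give a lower bound for Mzb1, its pDC mean over a floor of 3 reads in the Sirpa+ DCs, where it had no count. The counting error of the pDC mean is left out of that bound. Xbp1 at 1.58 in PBS pDCs against Sirpa+ DCs is the other filled point.

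Mzb1, which helps GRP94 fold its clients in the ER, was present in pDCs and had no count in either Sirpa+ DC library. Its level was 114 and 93.0 CPM in the YG+ pDCs (81 and 52 reads), 166 and 164 CPM in the PBS pDCs (26 and 71 reads), and 0 and 0 in the Sirpa+ DCs. A count of 0 allows 3 reads over the Sirpa+ DC group, or 4.07 CPM. Its mean was 25.4 times that floor in YG+ pDCs and 40.6 times in PBS pDCs, with the counting error of the pDC libraries left out. Mzb1 was called in both comparisons by edgeR's test of its log2 differences, with adjusted p = 0.00179 for YG+ pDCs and 7.90e-04 for PBS pDCs. It stayed past the threshold in 15 of 15 alternative fits in each of these comparisons. Both YG+ pDC libraries lay below both PBS pDC libraries, at 103 ± 14.7 against 165 ± 1.09 CPM (SD, n = 2), but that log2 difference of -0.67 ± 0.41 (SE) was not called (adjusted p = 0.568). Mzb1 lies on the minus strand at chr18:35647267-35649367 (GRCm38), and 57.2% of its exon length is shared on that strand with the annotated gene SPATA24.

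Hspa5, the ER member of the HSP70 family, was among the 3 highest members per length in every group. It had 1201 and 1233 CPM in the YG+ pDCs, 459 and 914 CPM in PBS pDCs, and 846 and 1011 CPM in Sirpa+ DCs. The YG+ libraries were the highest of all 6, and PBS pDC replicate 1 was the lowest by a wide gap. The means of 1217 ± 22.5 CPM (YG+ pDCs) and 687 ± 322 CPM (PBS pDCs; SD, n = 2) gave a log2 difference of 0.81 ± 0.45 (adjusted p = 0.529). Without PBS pDC replicate 2, leaving the shallow library as the PBS pDC sample, it was 1.44 and past the threshold (adjusted p = 0.04999), in a fit that called 2.42% of all genes higher in YG+ pDCs. That fit assumes that the lone library varies like the other groups. PBS pDCs did not differ from Sirpa+ DCs beyond the spread either, with a log2 difference of -0.43 ± 0.45 (adjusted p = 0.638).

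Hsp90b1, the ER form of HSP90 that folds Toll-like receptors and integrins, had 923 and 900.0 CPM in the YG+ pDCs, 383 and 852 CPM in PBS pDCs, and 377 and 417 CPM in Sirpa+ DCs. The YG+ pDCs were above both other groups, while PBS pDC replicate 1 stood within the range of the Sirpa+ DCs and replicate 2 far above it. In YG+ pDCs against Sirpa+ DCs the means were 911 ± 16.1 and 397 ± 28.4 CPM, a log2 difference of 1.20 ± 0.46 that was not called (adjusted p = 0.153). It was called in a fit of those 4 libraries alone (adjusted p = 0.0143), where 7.45% of all genes were called higher, and in the fits without PBS pDC replicate 1 (0.0140) or replicate 2 (0.0201). The log2 difference between PBS pDCs and Sirpa+ DCs was 0.65 ± 0.46 (adjusted p = 0.453) and that between YG+ and PBS pDCs 0.55 (adjusted p = 0.693).

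The disulfide isomerases Pdia4 and Pdia6 showed no called difference in any comparison. Pdia4 had 174 and 191 CPM in the YG+ pDCs, 82.9 and 259 CPM in PBS pDCs, and 80.4 and 191 CPM in Sirpa+ DCs. Pdia6 had 319 and 295 CPM in the YG+ pDCs, 121 and 379 CPM in PBS pDCs, and 220.0 and 393 CPM in Sirpa+ DCs. For both genes the YG+ libraries were close together and lay inside the range of the PBS pDCs. Their replicate 1 library was the lower one in the PBS pDCs and in the Sirpa+ DCs. The fitted log2 differences ran from -0.26 (Pdia6, PBS pDCs against Sirpa+ DCs, adjusted p = 0.826) to 0.39 (Pdia4, YG+ pDCs against Sirpa+ DCs, adjusted p = 0.719).

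Of the members that serve ER-associated degradation, Herpud1 is a membrane protein that brings substrates to the ubiquitin ligase complex and Edem1 is a lectin that recognises trimmed mannose chains. Neither had a called difference. Herpud1 had 303 and 333 CPM in the YG+ pDCs, 408 and 280.0 CPM in PBS pDCs, and 161 and 213 CPM in Sirpa+ DCs. All 4 pDC libraries were above both Sirpa+ DC libraries, with log2 differences of 0.86 ± 0.42 for PBS pDCs (adjusted p = 0.245) and 0.76 ± 0.41 for YG+ pDCs (adjusted p = 0.309). Edem1 had 459 and 438 CPM, 281 and 414 CPM, and 432 and 484 CPM in the same order of groups. The lowest Edem1 value was again PBS pDC replicate 1, and the YG+ pDCs and Sirpa+ DCs overlapped.

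Xbp1, the transcription factor of the IRE1 branch, was higher in PBS pDCs than in Sirpa+ DCs. It had 569 and 884 CPM in the YG+ pDCs, 893 and 798 CPM in PBS pDCs, and 334 and 233 CPM in Sirpa+ DCs. All 4 pDC libraries lay above both Sirpa+ DC libraries, and the YG+ and PBS pDCs overlapped. Of all genes, 22.9% in PBS pDCs and 32.8% in YG+ pDCs also lay wholly above the Sirpa+ DCs. The PBS pDC mean of 846 ± 66.9 CPM was 2.98 times the Sirpa+ DC mean of 284 ± 71.4 CPM (log2 difference 1.58 ± 0.44, adjusted p = 0.0414). The call was kept in 10 of 15 alternative fits. It was lost in the fit of the 4 libraries alone (adjusted p = 0.129) and without YG+ pDC replicate 1 (0.144) or 2 (0.138) or Sirpa+ DC replicate 1 (0.136) or 2 (0.284), with log2 differences of 1.38 to 1.85. In YG+ pDCs the mean of 726 ± 223 CPM was 2.56 times that of Sirpa+ DCs (log2 difference 1.36 ± 0.44, adjusted p = 0.0896). That difference was called with those 4 libraries alone (adjusted p = 0.0152) and without PBS pDC replicate 1 (0.0112) or 2 (0.0178). Between YG+ and PBS pDCs it was -0.22 (adjusted p = 0.890). Xbp1 lies on the plus strand at chr11:5520659-5525893.

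Atf4, the transcription factor translated when PERK is active, had 204 and 225 CPM in the YG+ pDCs, 351 and 245 CPM in PBS pDCs, and 220.0 and 128 CPM in Sirpa+ DCs. Both PBS pDC libraries were above all others, and the YG+ pDCs overlapped the Sirpa+ DCs. No Atf4 difference was called, the largest being 0.78 ± 0.44 on the log2 scale in PBS pDCs against Sirpa+ DCs (adjusted p = 0.321). Ddit3, the CHOP factor that ATF4 induces and that is linked to cell death under lasting ER stress, was a low member per length of exon. It had 52.0 and 35.8 CPM in the YG+ pDCs, 121 and 30.1 CPM in PBS pDCs, and 29.6 and 31.9 CPM in Sirpa+ DCs, from 7 to 37 reads a library. PBS pDC replicate 1 alone stood above the rest. The log2 difference of PBS pDCs from Sirpa+ DCs was 1.12 ± 0.68 (adjusted p = 0.364). Without PBS pDC replicate 2 it was 1.90 (adjusted p = 0.0389, with 6.95% of all genes called higher), and without replicate 1 it was -0.04 (adjusted p = 0.976), so that 1 library set its direction.

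**Figure D3:**
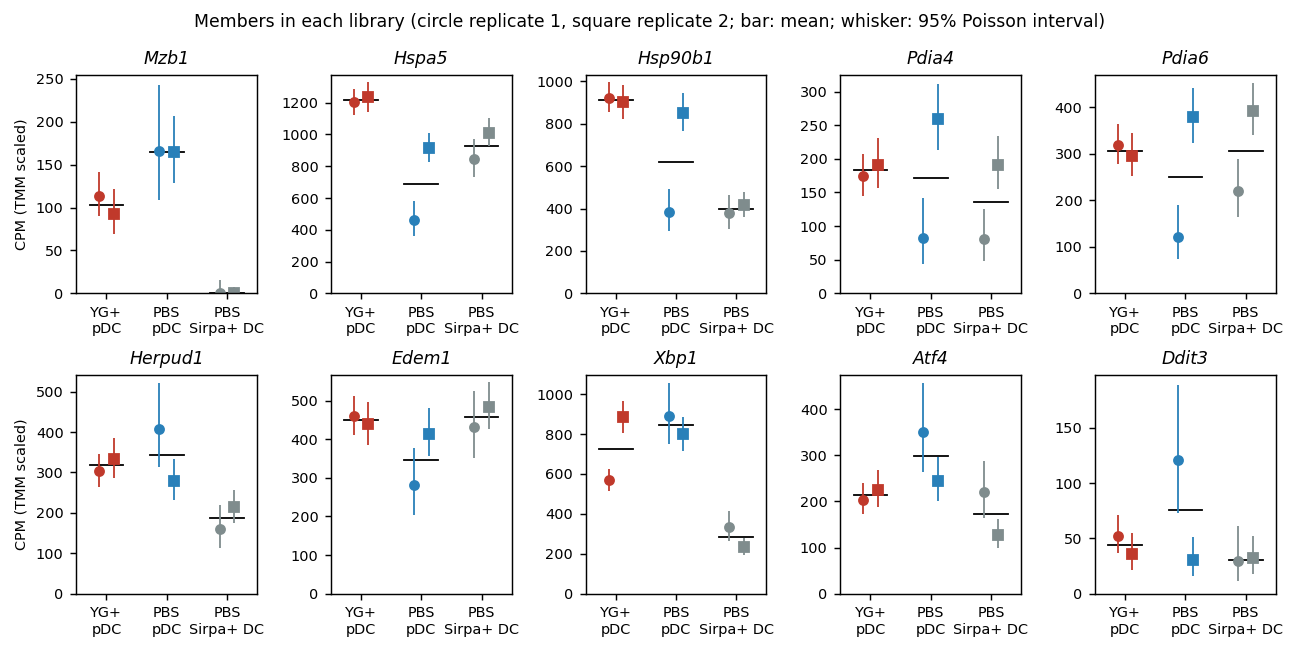
CPM of the 10 members in each of the 6 libraries (vertical axis from 0, TMM scaled; circle: replicate 1; square: replicate 2; bar: group mean; whisker: 95% Poisson interval of the count). Mzb1 lies at 0 in both Sirpa+ DC libraries, and the PBS pDC libraries stand apart in Hspa5, Hsp90b1, Pdia4, Pdia6 and Ddit3.

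The PBS pDC libraries differed from each other by more than counting error downwards in replicate 1 for 5 members and upwards for 3. Among all genes tested, 20.7% had a log2 ratio of replicate 1 to replicate 2 under -1, beside 3 of 10 members. The share of all genes that differ by more than counting error was not computed. In exact conditional binomial 95% intervals of the 2 counts, which cover counting error only, the ratio of replicate 1 to replicate 2 was 0.502 (0.385 to 0.647) for Hspa5 and 0.449 (0.336 to 0.592) for Hsp90b1. It was 0.320 (0.165 to 0.570) for Pdia4, 0.319 (0.188 to 0.515) for Pdia6 and 0.678 (0.476 to 0.947) for Edem1. These 5 genes were lower in the shallower library. The ratio was 1.43 (1.01 to 2.00) for Atf4, 1.46 (1.06 to 1.99) for Herpud1 and 4.03 (1.89 to 8.87) for Ddit3, all higher there. Herpud1 serves ER-associated degradation as Edem1 does, so the members did not split by role. Mzb1 at 1.01 (0.618 to 1.60) and Xbp1 at 1.12 (0.912 to 1.37) had intervals that held 1. Of 125 genes in 8 wider lists of the pathway, 89 were lower in replicate 1, with a median log2 ratio of -0.385 against -0.104 for all genes. Among these were 15 of 17 chaperones and 8 of 9 sensors and transcription factors (medians -0.52 and -0.91). The others were 9 of 11 genes of N-glycosylation, 10 of 14 of ER-associated degradation, 15 of 22 of translocation and 16 of 25 of transport to the Golgi. Disulfide formation had 6 of 10 lower. The targets of ATF4 and PERK had 10 of 17 lower, and their median of -0.10 was that of all genes.

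Sirpa+ DC replicate 1, the shallower library of its group, was also lower in Hspa5 at 0.837 (0.707 to 0.988), Pdia4 at 0.420 (0.242 to 0.692) and Pdia6 at 0.560 (0.405 to 0.764), and higher in Atf4 at 1.72 (1.17 to 2.53) and Xbp1 at 1.43 (1.06 to 1.92). In the YG+ pDCs only Xbp1, at 0.644 (0.563 to 0.735), had an interval away from 1. Over all 8141 genes the median log2 ratio of replicate 1 to replicate 2 was -0.10 in PBS pDCs, with quartiles of -0.83 and 0.74, against -0.02 in YG+ pDCs and -0.03 in Sirpa+ DCs (medians). Wide differences between the PBS pDC libraries were thus common to many genes. Depth and the Tsix to Xist ratio moved with these differences, and their part was not tested.

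**Figure D4:**
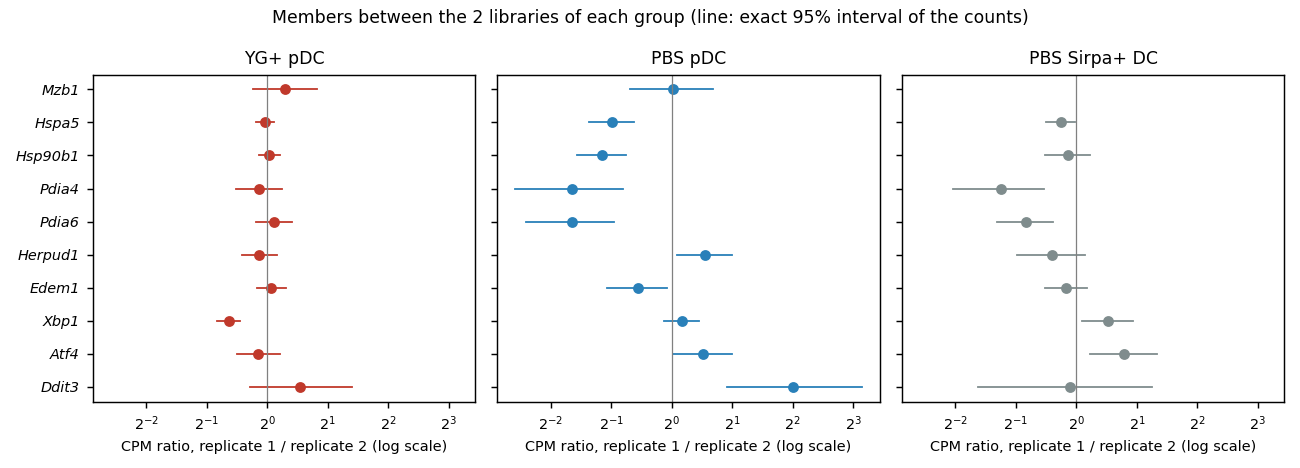
Ratio of replicate 1 to replicate 2 for each member within each group (horizontal axis, log scale; line: exact 95% interval of the counts). Hspa5, Hsp90b1, Pdia4, Pdia6 and Edem1 lie left of 1 in PBS pDCs while Ddit3 lies at 4.03, and in YG+ pDCs Xbp1 at 0.644 is the one whose line does not cross 1.

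Levels of different members were set side by side per length, as CPM per kilobase of annotated exon. In PBS pDCs Xbp1 was first at 260 CPM per kilobase, above Hspa5 at 162, Hsp90b1 at 153, Herpud1 at 147, Mzb1 at 136 and Atf4 at 126. Pdia4 (71.3), Pdia6 (66.8), Edem1 (53.8) and Ddit3 (44.2) followed, and there Xbp1 was the only member whose libraries did not overlap those of the next in order. In YG+ pDCs Hspa5 was first at 288 CPM per kilobase, above Hsp90b1 at 226 and Xbp1 at 224, which overlapped, then Herpud1 at 136. Atf4 (91.0), Mzb1 (85.1), Pdia6 (82.0) and Pdia4 (76.2) each overlapped the next of these, and Edem1 (69.6) and Ddit3 (25.6) were last. In Sirpa+ DCs Hspa5 at 220 CPM per kilobase was followed at a distance by Hsp90b1 at 98.4, Xbp1 at 87.4, Pdia6 at 81.8 and Herpud1 at 80.2. Atf4 (73.7), Edem1 (71.0), Pdia4 (56.6) and Ddit3 (18.0) came next, and Mzb1 was at 0. From Hsp90b1 to Pdia4 each member overlapped the next in that order, while Hspa5, Ddit3 and Mzb1 stood apart. The lengths of the transcripts in these cells are not known, and with the longest annotated transcript in place of all exons ranks moved by at most 2 places. Xbp1 was then first in YG+ pDCs at 341 against 331 for Hspa5, Hspa5 came behind Hsp90b1 in PBS pDCs, and Ddit3 at 78.1 stood above Pdia4 and Edem1 there.

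Beyond the members, 8 lists of the same pathway held 139 genes, of which 125 were tested. In PBS pDCs against Sirpa+ DCs 5 of the 125 were higher and 4 lower, beside the 4.54% and 6.89% of all genes, and the lists' median log2 difference was 0.11 against 0.08. The 5 higher genes had different roles. Txndc5, a plasma cell disulfide isomerase, had 89.3 and 433 CPM in PBS pDCs and 21.2 and 63.8 CPM in Sirpa+ DCs (log2 difference 2.57 ± 0.72, adjusted p = 0.0406), with 11.9% of its exon length under the opposite strand. Sec11c, a catalytic subunit of the signal peptidase, had a log2 difference of 1.89 ± 0.48 (adjusted p = 0.0271). Serp1, which sits at the translocon, had 1.61 ± 0.43 (adjusted p = 0.0330). Stt3b, a catalytic subunit of oligosaccharyl transferase, had 1.44 ± 0.41 (adjusted p = 0.0442). Creb3, an ER-anchored transcription factor, had 1.85 ± 0.53 (adjusted p = 0.0446), but 20.8% of its exon length lies under genes of the opposite strand, its adjusted p was 0.0666 without PBS pDC replicate 1, and it was 0.0644 with DESeq2, which called 10.5% of all genes.

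The 4 lower genes were Atf3, Slc7a11, Nfe2l2 and Sdf2l1. Atf3, a transcription factor induced downstream of ATF4, had 6.38 and 20.8 CPM in PBS pDCs and 135 and 191 CPM in Sirpa+ DCs, a log2 difference of -3.34 ± 0.60 (adjusted p = 0.00608). It had 94.1 and 50.1 CPM in the YG+ pDCs, between the other groups. Slc7a11, the cystine transporter, differed by -2.20 ± 0.53 (adjusted p = 0.0218), Nfe2l2, the NRF2 factor that PERK can phosphorylate, by -1.88 ± 0.48 (adjusted p = 0.0294), and Sdf2l1, a co-chaperone of BiP, by -1.74 ± 0.41 (adjusted p = 0.0208).

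By list, 1 of 9 sensors and transcription factors was higher and 1 lower, and the same held for 1 and 1 of 17 chaperones and co-chaperones. Of 10 genes of disulfide formation 1 was higher, of 22 of translocation 1, and of 11 of N-glycosylation 1, with none lower in these 3 lists. Of 17 targets of ATF4 and PERK 2 were lower, and 0 of 14 genes of ER-associated degradation and 0 of 25 of transport to the Golgi were called. The list medians ran from -0.45 for disulfide formation to 0.65 for the sensors and transcription factors. Without PBS pDC replicate 1, a fit in which 5.6% of all genes were called higher and 7.56% lower, 8 of 128 list genes were higher and 5 lower. In that fit the medians ran from -0.38 for the targets of ATF4 and PERK to 1.05 for the sensors and transcription factors. Disulfide formation was then at -0.12, the chaperones went from -0.09 to 0.18, and all lists together from 0.11 to 0.29.

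In YG+ pDCs against PBS pDCs edgeR called 0 of the 125 list genes, and 6 had an unadjusted edgeR p under 0.05, beside 11.4% of all genes. DESeq2 called 0 of the list genes to which it gave an adjusted p. It gave no adjusted p to several of them. Atf3 was among these, at 2.15 ± 0.61 in log2 terms (edgeR unadjusted p = 0.00463, adjusted p = 0.316). The lists' median log2 difference was 0.18 against 0.08 for all genes, and 0.02 without PBS pDC replicate 1. In YG+ pDCs against Sirpa+ DCs 3 of the 125 list genes were higher and 3 lower, beside 3.07% and 4.09% of all genes. Serp1 (1.85 ± 0.42, adjusted p = 0.0235) and Stt3b (1.70 ± 0.41, adjusted p = 0.0279) were higher in log2 terms, as was Phgdh, the first enzyme of serine synthesis and an ATF4 target, at 34.9 CPM against 0 and 3.99 CPM in the Sirpa+ DC libraries, a mean of 1.99 CPM under the floor of 4.07 (adjusted p = 0.0317). Sdf2l1 (-1.82 ± 0.39, adjusted p = 0.0191), the ER oxidase gene Ero1lb (-1.78 ± 0.46, adjusted p = 0.0401) and Slc7a11 (-1.75 ± 0.46, adjusted p = 0.0436) were lower. DESeq2, which called 7.36% of all genes in that comparison, did not call Phgdh (adjusted p = 0.0829) or Slc7a11 (adjusted p = 0.0746). The lists' median was 0.36 against 0.04 for all genes. List medians ran from 0.07 for the targets of ATF4 and PERK to 0.98 for the sensors and transcription factors. N-glycosylation was at 0.80, translocation at 0.50, disulfide formation at 0.33 and ER-associated degradation at 0.29. The chaperones were at 0.22 and transport to the Golgi at 0.19. None of the 9 sensors and transcription factors or of the 22 genes of translocation was called. Without PBS pDC replicate 1, where 6.58% of all genes were called higher and 9.14% lower, 10 of 128 list genes were higher and 7 lower. Both comparisons with Sirpa+ DCs share those 2 libraries.

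**Figure D5:**
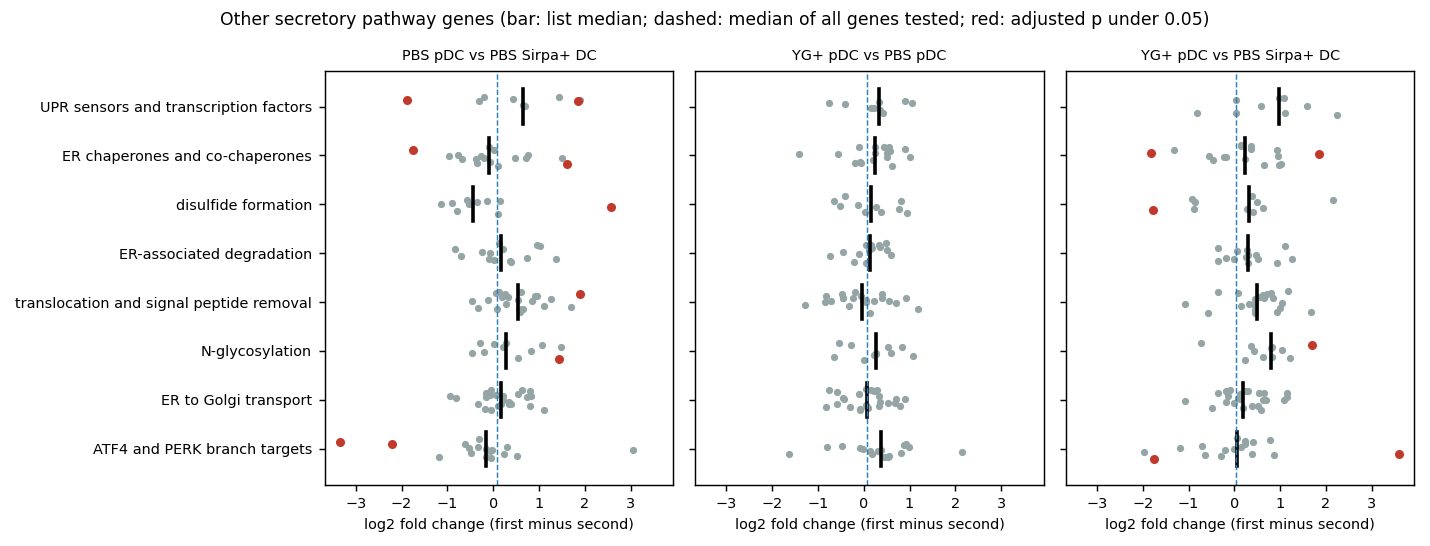
Log2 fold changes of the genes of 8 secretory pathway lists in the 3 comparisons (horizontal axis; 1 point per gene; bar: list median; dashed line: median of all genes tested; red: adjusted p under 0.05). Red points lie on both sides of 0 in the comparisons with Sirpa+ DCs, and there is none in YG+ pDCs against PBS pDCs.

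B cells and plasma cells, which also express Mzb1 and Xbp1, were looked at through their markers. The 10 B cell markers summed to 725 to 976 CPM in the pDC libraries and to 207 and 77.8 CPM in the Sirpa+ DCs, where Ms4a1, Pax5 and Blk were among those with no count. The 11 plasma cell markers summed to 708 and 848 CPM in the YG+ pDCs, 510 and 919 CPM in PBS pDCs, and 305 and 399 CPM in Sirpa+ DCs. Among them Pou2af1, which B cells express too, had 57.4 to 102 CPM in the pDC libraries and no count in Sirpa+ DCs, and Tnfrsf17 had no count in any library. The sums of B cell and plasma cell markers thus moved with Mzb1 and Xbp1 between pDCs and Sirpa+ DCs, but not every marker did. Prdm1 was higher in both Sirpa+ DC libraries than in any pDC library. Irf4 overlapped between PBS pDCs and Sirpa+ DCs, and Cd22, Vpreb3, Sdc1, Derl3 and Fkbp11 between pDCs and Sirpa+ DCs. Cd22 at 169 CPM gave most of the B cell sum in Sirpa+ DC replicate 1. Txndc5, a plasma cell marker here, is also in the list of disulfide formation. The part of B cells and plasma cells was not tested. The 10 monocyte and macrophage markers summed to 1805 and 726 CPM in the YG+ pDCs, 370 and 211 CPM in PBS pDCs, and 3901 and 6260 CPM in Sirpa+ DCs. Their sum was thus highest where Atf3, Slc7a11 and Sdf2l1 were highest, and their part was not tested either. Lyz2 alone gave 1473 and 2546 CPM in the Sirpa+ DCs. Cd68 overlapped between the groups, and Mertk at 71.6 CPM in YG+ pDC replicate 1 was above both Sirpa+ DC libraries (46.5 and 57.8 CPM). The other markers of that list were higher in both Sirpa+ DC libraries than in any pDC library. The 10 T cell and thymocyte markers summed to 216 to 357 CPM in the pDC libraries and to 67.7 and 41.9 CPM in the Sirpa+ DCs. Cd8b1 gave most of the pDC sum, at 147 to 262 CPM against 4.23 and 3.99 CPM. Lck was also higher, at 23.9 to 70.2 CPM against 4.23 and 5.98 CPM. The rest overlapped or, like Cd3g and Ptcra, had no count. The 7 thymic epithelial markers summed to 6.38 to 33.7 CPM in the pDC libraries and to 135 and 132 CPM in the Sirpa+ DCs. Of the latter, Epcam gave 118 and 102 CPM, and Foxn1 had no count in any library.

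Genes with the pattern closest to a member were found by the Euclidean distance of centred log2 CPM over the 6 libraries, as a description. Among the closest to Mzb1 were Fcrla (0.715), Dntt (0.815), Cd8b1 (0.826) and Jakmip1 (0.957), against a median of 5.79 over all genes. Dntt and Jakmip1, like Mzb1, had no count in Sirpa+ DCs. Closest to Xbp1 were Tsc22d1 (0.341), Tmem63a (0.342), Tspan13 (0.389), Sh2b2 (0.389) and Rhno1 (0.418), against a median of 2.22, and its nearest members were Herpud1 (1.09) and Atf4 (1.14). Closest to Hspa5 were Skil (0.075), Hsp90ab1 (0.075), Sipa1 (0.104), Tnpo1 (0.215) and Ywhae (0.230), against a median of 1.74. Hsp90ab1, the cytosolic HSP90, had 1867 and 1925 CPM in the YG+ pDCs, 721 and 1437 CPM in PBS pDCs, and 1320 and 1493 CPM in Sirpa+ DCs, the order and the low PBS pDC replicate 1 seen for Hspa5. All these distances share the same 6 libraries and their depths.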

How the data were processed

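Whole-number read counts per gene symbol were deposited by the authors for each of the 6 libraries, with no normalization. Per the labels' protocols, 5 ng of TRIzol-extracted total RNA went into each library (Ovation SoLo RNA-Seq Mouse). The submitters' processing notes name bcl2fastq 2.17 and mm10, with the aligner, counter, annotation and strand setting not given in the sources used here. Summary lines that name no gene held 97.7% to 99.5% of records and were left out of totals and fits. A count of 0 allows 3 counts, or 4.20 to 16.9 CPM of a library's gene total; intervals and floors cover counting error only.

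Genes passing edgeR's filterByExpr (8141) were scaled by TMM and tested with edgeR 4.0.16 (glmQLFit, glmQLFTest) in R 4.3.3. One fit of 3 group means over all 6 libraries left 3 residual degrees of freedom, with no covariate and no block. A gene was called when its p, adjusted by Benjamini-Hochberg within a comparison, was under 0.05. The biological coefficient of variation was 33.0%. The scripts were tested on simulated data. Lengths and overlaps came from GENCODE M21 (GRCm38), and promoters from RefSeq (GRCm38.p6; 9 of 10 members matched, and Mzb1 was not among them). Alternatives were other scalings, other filters, DESeq2 1.42.0, limma-voom (limma 3.58.1), leaving out each library in turn, a block for the replicate number, a fit without the third group, and the longest transcript as length. Pathway counts and levels without PBS pDC replicate 1 were added after seeing the data. Other steps ran in Python 3.11.15 (scipy 1.17.1, pandas 2.3.3, numpy 2.4.6, matplotlib 3.10.9).

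The members, lists and tests were chosen with earlier results of these data known. Named genes are the 10 members, from each pathway list the 2 with the smallest p per comparison or all called where 5 or fewer (fewer are printed), and the 5 genes nearest in pattern to Mzb1, Hspa5 and Xbp1. Some genes that this rule or the marker lists take are left out of the text. Hsp90ab1's values, Tsix and Xist were chosen for printing after their values were seen.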

Additional observations from a re-analysis of the deposited data

How the results depend on the processing

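Over 15 alternatives to each of the members' 30 fitted log2 differences, 413 values kept their direction and side of the threshold, 24 turned in sign, 8 newly passed and 5 no longer passed. A value without an adjusted p was taken as not called. The DESeq2 values of Mzb1 and Ddit3 in YG+ against PBS pDCs are such values and are among the 413. Genes called were 580 (PBS pDCs against Sirpa+ DCs) and 1480 (YG+ pDCs against Sirpa+ DCs) with the 4 libraries compared, and members called 1 and 3. With no filter 141 genes (YG+ against PBS pDCs) and 894 (YG+ pDCs against Sirpa+ DCs) were called, and with DESeq2 111 (YG+ against PBS pDCs). Leaving out 1 library in turn gave 214 to 1297, 0 to 870 and 69 to 1487 genes, and 1 to 3, 0 to 1 and 1 to 3 members, in PBS pDCs against Sirpa+ DCs, YG+ against PBS pDCs and YG+ pDCs against Sirpa+ DCs. The cause was not tested.

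Of the values that turned, Pdia4 in YG+ against PBS pDCs was -0.026 with DESeq2's size factors, -0.0030 with DESeq2 and -0.011 with 4 libraries. Pdia6 in YG+ pDCs against Sirpa+ DCs was 0.0084 with upper quartile scaling, 0.023 with no filter and 0.059 with limma-voom, and Edem1 was 0.016 with no filter. Leaving out 1 library in turn, the PBS pDC against Sirpa+ DC difference ran from -1.41 to 0.29 for Pdia6, -0.040 to 1.90 for Ddit3, -0.105 to 1.11 for Hsp90b1 and -0.83 to 1.17 for Pdia4. The YG+ against PBS pDC difference ran from -0.54 to 0.082 for Xbp1, -0.51 to 1.18 for Pdia4, -0.31 to 1.38 for Pdia6, -0.32 to 0.17 for Herpud1 and -1.41 to 0.54 for Ddit3. The YG+ pDC against Sirpa+ DC difference ran from -0.39 to 0.48 for Pdia6, -0.098 to 1.18 for Pdia4, -0.14 to 0.057 for Edem1 and -0.037 to 0.72 for Atf4. No value that turned in sign passed the threshold.

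The labels do not say whether libraries with the same replicate number are paired. Across genes, the differences between replicates of 2 groups correlated at -0.121 (YG+ and PBS pDCs), -0.099 (YG+ pDCs and Sirpa+ DCs) and 0.298 (PBS pDCs and Sirpa+ DCs). Whether the PBS pDCs and Sirpa+ DCs share animals was not tested. With the replicate block 942 genes and 2 members were called in PBS pDCs against Sirpa+ DCs, and 0 and 0 in YG+ against PBS pDCs. In YG+ pDCs against Sirpa+ DCs 635 genes and 1 member were called, and Pdia6 was 0.12. The block changed no member's call.

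With 2 libraries a group and 177844 to 713966 gene counts, a member that missed the threshold is not shown to be alike in the groups, and Ddit3 rests on 7 to 37 reads a library and Mzb1 on 26 to 81 where it was detected.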
